A study of Homo sapiens with 2 samples.

Results

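The genes described here are 10 protein-coding neighbours of MET at 7q31 on the long arm of human chromosome 7. MDFIC, TES, CAV2 and CAV1 lie on the side of the centromere, and CAPZA2, ST7, WNT2, ASZ1, CFTR and CTTNBP2 on the side of the telomere. The rule names them by their position beside MET and uses no measured value, although earlier results of these arrays were known when they were picked. Of the 10, 9 were measured by a probe set annotated to exactly 1 gene symbol, among 18377 genes measured in that way. The probe set for CAV2 also names the locus LOC105375463, so CAV2 enters no count of levels or differences and its value is given apart. The promoter counts over all 10 include it.

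The data are 1 whole-transcript array of EBC1-R cells and 1 of EBC1 cells. EBC1-R is a resistant subline that survived stepwise exposure to PHA-665752, which blocks the MET kinase, and was then kept with the inhibitor at 3 µM. EBC1 is the parental line, from a human squamous carcinoma of the lung and listed as wild type. Its MET gene, for the receptor of hepatocyte growth factor, is amplified. The study asked how the resistant cells differ from their parent. No source used here says whether EBC1-R is a single clone, and lasting resistance cannot be told apart from the presence of the drug. With 1 array per group there is no replicate error and no test, so every difference below is the size of a gap between 2 arrays.

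Amplification copies a stretch of chromosome, and genes that lie beside the selected gene can be copied with it. How far the copied stretch reaches varies between tumours, and a copied gene need not be transcribed in a cell type that does not use its promoter. The arrays measured RNA and not copy number, and which of these neighbours share the MET amplification in EBC1 was not measured here.

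Levels are log2 intensities as deposited, and a percentile is the rank of a gene's intensity among all 18377 genes of the same array. Each probe set binds with its own affinity, so a rank of intensity is not a rank of transcript amount. As a guide to the low end, 18 of 20 listed genes of olfaction and the retina were measured, and they spanned 4.44 to 6.44 in EBC1-R, with a median of 5.29, and 4.63 to 6.48 in EBC1, also with a median of 5.29. Intensities within that range are called low here. The epithelial label was checked on 11 of 12 listed markers. Among these CDH1 (E-cadherin) stood at 12.06 in EBC1-R and 11.96 in EBC1 and KRT7 at 12.00 in EBC1-R and 12.17 in EBC1. The basal keratin KRT5, a marker of squamous cells, stood at 6.11 in EBC1-R and 6.17 in EBC1, within the low range. The basal keratin KRT14 stood above that range on both arrays, at 6.97 in EBC1-R and 7.26 in EBC1. SOX2 read 6.39 in EBC1-R, within the range, and 6.53 in EBC1, just above it. KRT19, KRT8 and KRT18 were bright on both arrays but 1.86-fold, 1.77-fold and 1.72-fold lower in EBC1-R. CDH1 alone of the 11 was higher in EBC1-R. Leukocyte markers reached at most 6.34 in EBC1-R and 6.38 in EBC1, and endothelial markers at most 6.83 in EBC1-R and 7.08 in EBC1. Of 10 fibroblast and smooth muscle markers, 1 passed the level filter described below. The summed intensity of each of these lists of other cell types was no higher in EBC1-R than in EBC1. On the log2 scale it was 8.86 in EBC1-R and 8.94 in EBC1 for leukocyte markers, 9.11 in EBC1-R and 9.21 in EBC1 for endothelial markers, and 9.71 in EBC1-R and 9.72 in EBC1 for fibroblast markers.

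Around MET the bright and the low genes fell into blocks. TES, CAV1 and CAPZA2 shared the top of both arrays with MET, MDFIC and ST7 lay high, and WNT2, ASZ1 and CTTNBP2 lay in the low range on both arrays. CFTR was in the low range in EBC1 and above it in EBC1-R. The measured neighbours on the centromeric side were all lower in EBC1-R and those on the telomeric side all higher. MET between them was nearly level, at a difference of 0.04, and so was WNT2 among the telomeric ones, at 0.01.

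**Figure D1:**
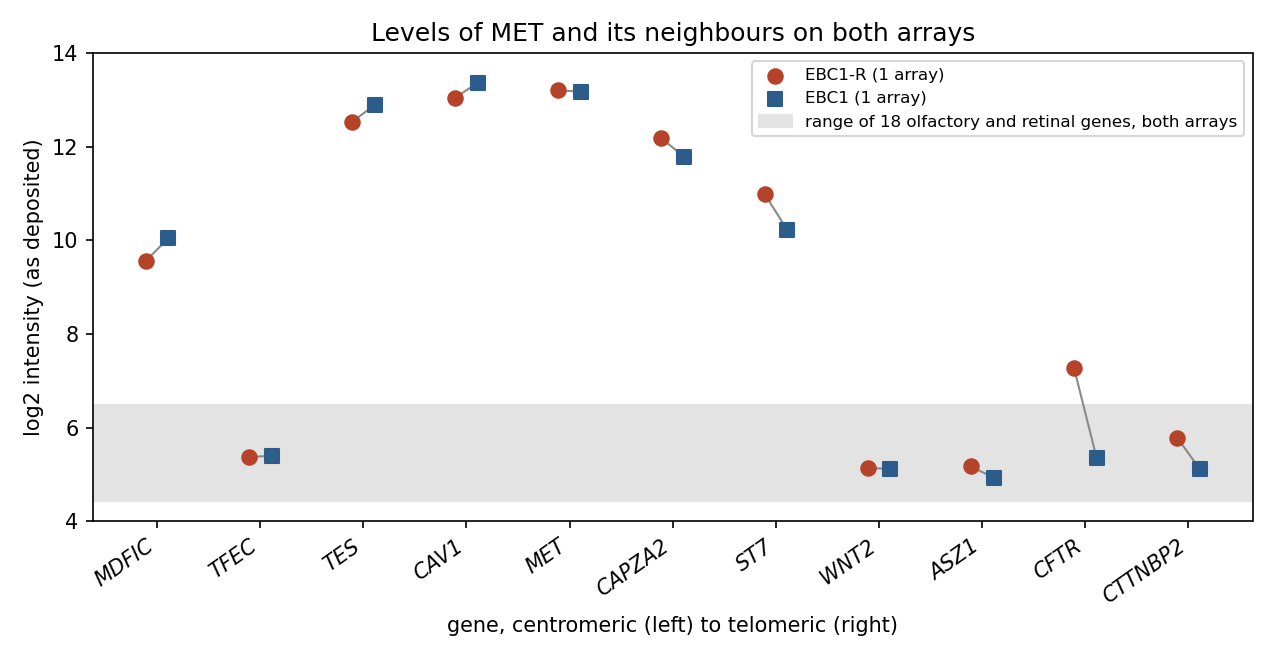
Log2 intensity of MET, its measured neighbours and TFEC, which lies among them but is not listed, in chromosomal order, with EBC1-R as circles and EBC1 as squares (1 array each, so no error bars). The grey band is the range of the 18 olfactory and retinal genes. TES, CAV1, MET and CAPZA2 lie at 11.79 or above on both arrays, and CFTR leaves the band on the EBC1-R array alone.

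MET itself read 13.21 in EBC1-R and 13.17 in EBC1, at percentile 99.95 on both arrays. CAV1, its measured neighbour on the centromeric side, encodes caveolin-1, the main coat protein of caveolae, which are small invaginations of the plasma membrane. CAV1 read 13.05 in EBC1-R and 13.36 in EBC1, a difference of -0.31 log2 units, or 1.24-fold lower in EBC1-R. It stood at percentile 99.91 in EBC1-R and 99.99 in EBC1, so the gap left it among the brightest genes of either array. TES encodes testin, a LIM-domain protein of focal adhesions and cell contacts. TES read 12.53 in EBC1-R and 12.89 in EBC1, which was 1.29-fold lower in EBC1-R. CAPZA2, next to MET on the telomeric side, encodes an alpha subunit of the capping protein that closes the growing ends of actin filaments. CAPZA2 read 12.18 in EBC1-R and 11.79 in EBC1, a difference of 0.39 or 1.31-fold higher, and so ran opposite to CAV1 and TES. Its close paralog CAPZA1, on another chromosome, read 9.95 in EBC1-R and 10.03 in EBC1. Whether CAPZA1 transcripts bind the CAPZA2 probes was not tested.

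These 3 neighbours reached the 98th percentile on both arrays, a mark set after the values were seen. Of all genes, 1.61% did so. Of the 20 measured genes on each side of the group none did, and the highest of them were LAMB1 (a laminin chain), at percentile 95.7 in EBC1-R and 97.4 in EBC1, and FAM3C (a secreted cytokine-like protein), at 90.0 in EBC1-R and 96.8 in EBC1. The probe set that names both CAV2, a caveolin that pairs with caveolin-1, and LOC105375463 read 12.29 in EBC1-R and 12.68 in EBC1, at percentile 99.5 in EBC1-R and 99.8 in EBC1, and was 1.31-fold lower in EBC1-R. It thus lay on the side of CAV1 in level and in the sign of its difference, with the share of either named gene in it unknown.

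MDFIC and ST7 mark the next step outward. MDFIC, at the centromeric end, encodes an inhibitor of MyoD family factors that also binds Piezo channels. MDFIC read 9.56 in EBC1-R and 10.05 in EBC1, which was 1.40-fold lower in EBC1-R and the largest gap among the neighbours on that side. TFEC, a transcription factor gene that lies between MDFIC and TES and is not on the list, read 5.38 in EBC1-R and 5.40 in EBC1, so the row of bright genes is broken there by a gene in the low range. ST7, named for its proposed role as a suppressor of tumour growth, follows CAPZA2. ST7 read 10.99 in EBC1-R and 10.22 in EBC1, a difference of 0.77 or 1.70-fold higher, and stood at percentile 96.7 in EBC1-R, against 92.1 in EBC1. Within ST7 the RefSeq table lists several other transcripts, among them ST7-AS1, ST7-AS2, ST7-OT3 and ST7-OT4, and their part in the ST7 signal was not tested.

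Beyond ST7 the intensities were low on both arrays, except for CFTR in EBC1-R. WNT2 encodes a secreted WNT ligand that takes part in lung development. WNT2 read 5.14 in EBC1-R and 5.13 in EBC1, in the low range on both arrays. ASZ1, a germ cell gene of the piRNA pathway that silences transposons, read 5.17 in EBC1-R and 4.94 in EBC1. Its gap of 0.24 log2 units lies between 2 low intensities. CTTNBP2, known from neurons as a binder of cortactin at dendritic spines, read 5.79 in EBC1-R and 5.12 in EBC1, which was 1.59-fold higher in EBC1-R though still within the range of the olfactory and retinal genes. No detection calls were used, so whether any of these 3 values exceeds background is not known.

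CFTR encodes the chloride and bicarbonate channel of epithelial surfaces whose loss causes cystic fibrosis. CFTR read 7.28 in EBC1-R and 5.35 in EBC1, a difference of 1.93 log2 units or 3.80-fold higher. On the EBC1-R array it stood at percentile 49.9, above the highest olfactory or retinal gene, and on the EBC1 array at percentile 13.0, with a level near their median. Because the EBC1 value is low, the fold understates the change if that value is mostly background. Among all genes 37, CFTR included, had a difference at least as high, which is 0.201%. RefSeq also lists the antisense genes CFTR-AS1 and CFTR-AS2 within CFTR and 3 pseudogene copies, CFTRP1, CFTRP2 and CFTRP3, and their part in the signal was not tested.

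CFTR was the 1 of 9 measured neighbours at least 2-fold higher in EBC1-R, where 1.26% of all genes were. None was 2-fold lower, where 0.887% of all genes were. Among the 4626 genes at 6 or under in EBC1, as CFTR was, 0.886% were at least 2-fold higher. At 1.5-fold, ST7 and CTTNBP2 joined CFTR, giving 3 of 9 higher, where 4.41% of all genes were, and none of 9 lower, where 3.16% were. The median difference of the 9 was 0.24, beside -0.03 over all genes. That median is the value of ASZ1, a gene in the low range, and describes neither side of MET.

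Set apart by side, the 3 measured centromeric neighbours differed by -0.49 to -0.31, with a median of -0.37, and the 6 telomeric ones by 0.01 to 1.93, with a median of 0.53. Over all genes 55.5% were lower in EBC1-R and 43.3% higher. All 3 on the first side were thus lower and all 6 on the second higher, WNT2 by only 0.01. In gene order, Spearman's rho between position and difference was 0.81 over the 9 neighbours and MET (n = 10 genes). It is given as a description, since these genes share the same 2 arrays and stretch of chromosome. Neither rho nor the split by side was a planned result, and rho weights the low intensities like the bright ones. The order broke at WNT2 and ASZ1, which lay below ST7 in difference, and at CTTNBP2, which lay below CFTR.

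**Figure D2:**
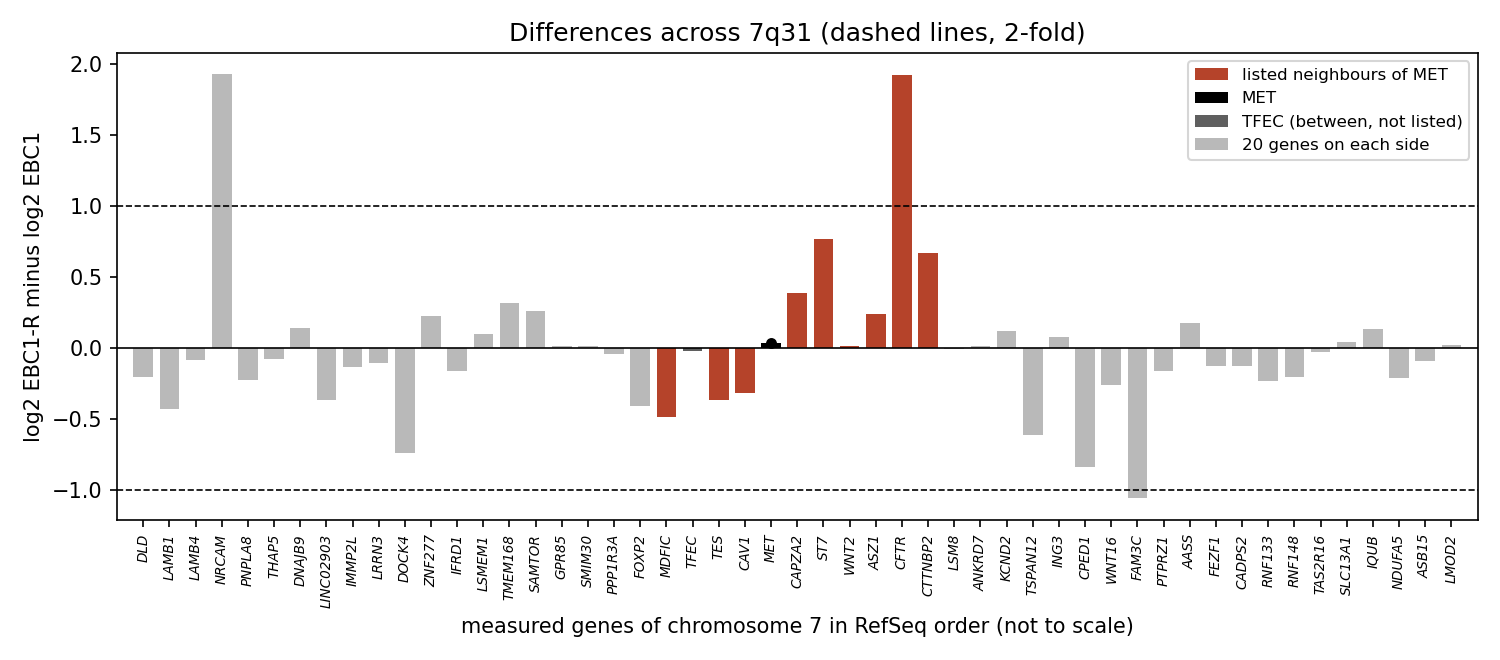
Difference, log2 EBC1-R minus log2 EBC1, of each measured gene across 7q31 in RefSeq order, with bars above 0 higher in EBC1-R and dashed lines at 2-fold. Listed neighbours of MET are red, MET is black and the 20 measured genes on each side are grey. Red bars lie below 0 left of MET and above 0 right of it, and CFTR and NRCAM reach the same height, 1.93.

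The sizes were set beside those of genes of like intensity. Among the 1764 genes with a mean level of 10 or above, 95% of differences lay between -0.89 and 0.84, and TES, CAV1, CAPZA2 and ST7 all lay inside that span. MDFIC lay inside the span of all genes, -0.65 to 0.75. Among the 4666 genes with a mean level under 6, 95% lay between -0.35 and 0.34. WNT2 and ASZ1 were inside it, and CTTNBP2, at 0.67, was outside it. CFTR was outside the span of all genes. As a measure of technical agreement, differences from probe sets for 1 gene had a pooled SD of 0.16 log2 units over 374 genes. These were genes with several probe sets that passed the level filter described below. The gaps of all measured neighbours but WNT2 were each over that SD, that of ASZ1 between 2 low intensities. How many of all genes are also over it was not counted, so passing it does not set the neighbours apart. WNT2, ASZ1, CFTR and CTTNBP2 do not pass that filter, so the SD was not taken from genes of their intensity. The SD holds no variation between cultures, so no gap is shown to exceed culture-to-culture spread.

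**Figure D3:**
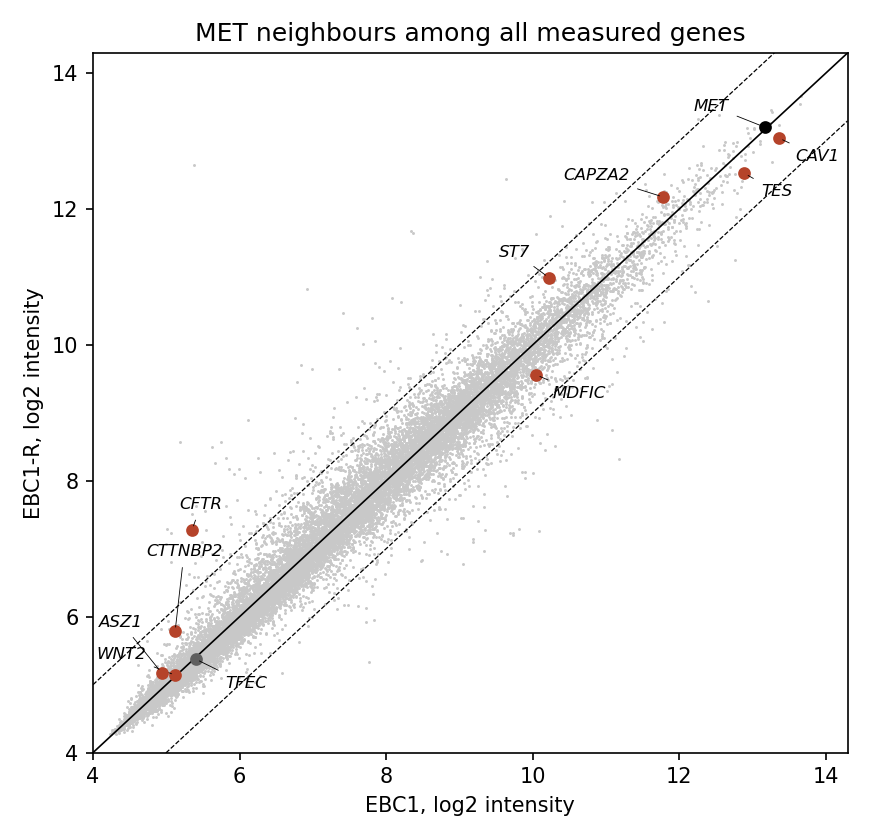
Log2 intensity in EBC1-R (vertical) against EBC1 (horizontal) for all 18377 genes in grey, with the measured neighbours of MET in red, MET in black and TFEC in dark grey. The solid line marks equal values and the dashed lines 2-fold. CFTR alone of the red points lies beyond a dashed line, while TES, CAV1 and CAPZA2 sit at the top end close to the solid line.

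Genes farther out were mixed. The 20 measured genes on the centromeric side, from DLD to FOXP2, had a median difference of -0.08. Of these, 8 were higher in EBC1-R, where 43.3% of all genes were. NRCAM, a neuronal cell adhesion molecule, was the 1 at least 2-fold higher, where 1.26% of all genes were. NRCAM read 8.40 in EBC1-R and 6.47 in EBC1, or 3.81-fold higher. DOCK4, an exchange factor for small GTPases, was 1.67-fold lower in EBC1-R and LAMB1 1.35-fold lower. The 20 on the telomeric side, from LSM8 to LMOD2, had a median of -0.11, with 7 higher, beside the same 43.3% of all genes. FAM3C was 2.08-fold lower, CPED1 1.79-fold lower and the tetraspanin TSPAN12 1.53-fold lower in EBC1-R. FOXP2, directly before MDFIC, differed by -0.41 at low intensity, and LSM8, directly after CTTNBP2, read 9.14 in EBC1-R and 9.15 in EBC1. The telomeric neighbours of MET from CAPZA2 to CTTNBP2 were therefore followed by a gene with a difference of -0.01. Over the 833 measured genes of chromosome 7 the median difference was -0.01.

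The median gap at 7q31 was smaller than that around ABCB1, a drug efflux pump gene at 7q21 on the same chromosome arm. At 7q31 1 of 9 neighbours of MET was at least 2-fold higher in EBC1-R, with a median of 0.24. Of the 7 genes from ELAPOR2 to ABCB1, 6 were, with a median of 2.18. These 7 include ABCB1 itself, with a difference of 7.27, whereas the 9 leave out MET, at 0.04. The 7q21 stretch was noted for its differences in these same arrays, so the contrast is a description with no test.

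Promoter sequences were taken from RefSeq (GRCh38.p14), 250 bases before to 50 after the listed start, and all 10 neighbours had an entry. Where a gene had several starts, the first listed was used. The 4 shown cover the main patterns: CFTR and ST7, with the largest gaps, CAV1, the brightest neighbour, and WNT2, in the low range. They are at chr7:117479775-117480074, chr7:116953251-116953550 and chr7:116524759-116525058 on the plus strand and chr7:117323009-117323308 on the minus strand. Capitals mark matches on either strand to 6 motifs, whose matches do not overlap in the windows shown. The GC box was searched as GGGCGG. The inverted or direct box bound by NF-Y was searched as CCAAT. The TATA element was searched with the letters TATAAA. The cAMP response element was searched in its full form, TGACGTCA, and in the form known from CFTR, TGACATCA. Sites for AP-1 factors were searched loosely with the letters TGANTCA, where N is any base.
CFTR: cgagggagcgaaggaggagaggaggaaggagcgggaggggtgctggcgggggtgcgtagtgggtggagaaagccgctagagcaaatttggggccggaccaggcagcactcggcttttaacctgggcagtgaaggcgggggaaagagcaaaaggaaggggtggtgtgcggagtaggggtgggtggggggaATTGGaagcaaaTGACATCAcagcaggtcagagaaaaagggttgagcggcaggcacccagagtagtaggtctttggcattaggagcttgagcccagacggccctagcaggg
ST7: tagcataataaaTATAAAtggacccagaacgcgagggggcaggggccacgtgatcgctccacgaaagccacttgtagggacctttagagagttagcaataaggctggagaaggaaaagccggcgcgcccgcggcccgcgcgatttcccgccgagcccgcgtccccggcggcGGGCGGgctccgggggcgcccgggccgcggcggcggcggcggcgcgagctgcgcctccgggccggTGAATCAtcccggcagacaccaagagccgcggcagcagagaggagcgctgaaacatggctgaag
CAV1: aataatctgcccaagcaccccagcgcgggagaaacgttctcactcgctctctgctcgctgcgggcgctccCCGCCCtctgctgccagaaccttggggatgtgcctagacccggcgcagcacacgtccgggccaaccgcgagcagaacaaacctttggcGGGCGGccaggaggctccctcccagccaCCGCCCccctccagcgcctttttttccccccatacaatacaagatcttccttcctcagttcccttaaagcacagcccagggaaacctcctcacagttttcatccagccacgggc
WNT2: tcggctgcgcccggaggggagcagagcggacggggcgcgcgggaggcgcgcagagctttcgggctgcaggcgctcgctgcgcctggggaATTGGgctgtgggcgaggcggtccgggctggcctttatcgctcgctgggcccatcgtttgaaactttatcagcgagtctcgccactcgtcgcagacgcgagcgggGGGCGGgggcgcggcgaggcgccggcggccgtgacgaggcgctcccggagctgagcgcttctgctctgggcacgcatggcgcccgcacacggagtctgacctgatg

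The CFTR promoter holds the element TGACATCA and an inverted CCAAT box just before it, both known elements of that promoter. Of the 10, CFTR alone held TGACATCA, which 2.71% of 27305 promoters hold. It was searched as the form known from CFTR, so its match there was given beforehand and does not set CFTR apart. CCAAT was found in 3 of the 10 and in 35.7% of all. A GC box was found in 8 of the 10 and in 44.6% of all promoters, CFTR and ASZ1 being those without. ST7 alone of the 10 held a match to TGANTCA, found in 7.76% of all, and to TATAAA, found in 12.0% of all. The first match reads TGAATCA, and the second lies near the upstream end of the window, far from the listed start. TGACGTCA, held by 1.98% of all promoters, was found in none of the 10. These matches are letters in a window and not binding sites. CpG dinucleotides did not follow the levels: CAV1 had 19 and TES 38 among the bright genes, WNT2 43, ASZ1 29 and CTTNBP2 53 among the low ones, and CFTR the fewest of the 10 with 12, beside a median of 14 over all promoters.

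Partner genes were described from lists of genes that act with each neighbour's product. Over all genes 55.5% were lower in EBC1-R, and each list's count is to be read against that share. Of 10 caveola genes 6 were lower and 3 higher, a share near that of all genes, with a median of -0.19. The membrane remodelling ATPase EHD1 was the 1 member 2-fold lower, where 0.887% of all genes were, at 8.79 in EBC1-R and 9.83 in EBC1. CAVIN3 was 1.44-fold lower and EHD2 1.29-fold lower. Of 10 partners of testin 6 were lower, again near the share of all genes, with a median of -0.18. The focal adhesion adaptor PXN (paxillin) was 1.79-fold lower, ZYX (zyxin) 1.25-fold lower and EVL, which promotes actin filament growth, 1.21-fold lower. Of 8 genes linked to MDFIC 7 were lower, with a median of -0.24. Its paralog MDFI was 1.39-fold lower, the cyclin CCNT1 1.29-fold and the mechanosensitive channel PIEZO1 1.28-fold lower. All 3 medians lay below the -0.03 of all genes. The epithelial markers were lower too, 10 of 11 of them with a median of -0.25, and the part of any such general shift in these lists was not tested.

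For the telomeric neighbours, the capping protein and germ granule lists had the median of all genes, -0.03. Of 9 measured genes of the capping protein list 7 were lower and 2 higher, where 55.5% of all genes were lower. CARMIL1, which uncaps filaments, was 1.68-fold higher, TWF2 (twinfilin) 1.90-fold lower and the adaptor SH3KBP1 1.20-fold lower, while the beta subunit CAPZB differed by 0.03. Of 22 measured WNT pathway genes 17 were lower, with a median of -0.17. The receptors FZD2 and FZD7 were 1.65-fold and 1.56-fold higher and DVL1, which relays the receptor signal, 1.58-fold lower. Of 14 measured partners of ASZ1 in germ granules 8 were lower, near the share of all genes, and 2 passed the level filter. TDRKH was 1.24-fold higher, PLD6 1.15-fold higher and HENMT1 1.21-fold lower. Of 13 measured genes of the cortactin and striatin list 9 were lower, with a median of -0.09, the widest gap being 1.24-fold, lower, for the phosphatase subunit PPP2CA. STRN3 and STRIP2 were each 1.23-fold lower.

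The genes listed with CFTR differed less than CFTR itself. Of 18 measured genes for its scaffolds, quality control and other epithelial ion transport, 11 were lower and 7 higher, with a median of -0.11, where 55.5% of all genes were lower. None of the 18 was 2-fold higher, where 1.26% of all genes were, so a list of this size is too short to set that count apart, and 2 were at least 2-fold lower, where 0.887% of all genes were. The syntaxin STX1A, which binds CFTR, was 2.90-fold lower, at 7.80 in EBC1-R and 9.34 in EBC1. The potassium channel KCNN4 was 2.04-fold lower and the calcium-activated chloride channel ANO1 1.84-fold lower. By distance over the 2 arrays, the genes whose pair of values came nearest to CFTR were ERO1B, an oxidase of the endoplasmic reticulum (7.28 in EBC1-R and 5.55 in EBC1), VNN1, a pantetheinase (7.51 in EBC1-R and 5.35 in EBC1), and SAA2, an acute phase serum amyloid protein (7.10 in EBC1-R and 5.49 in EBC1). With 2 arrays such likeness says only that both values are close.

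**Figure D4:**
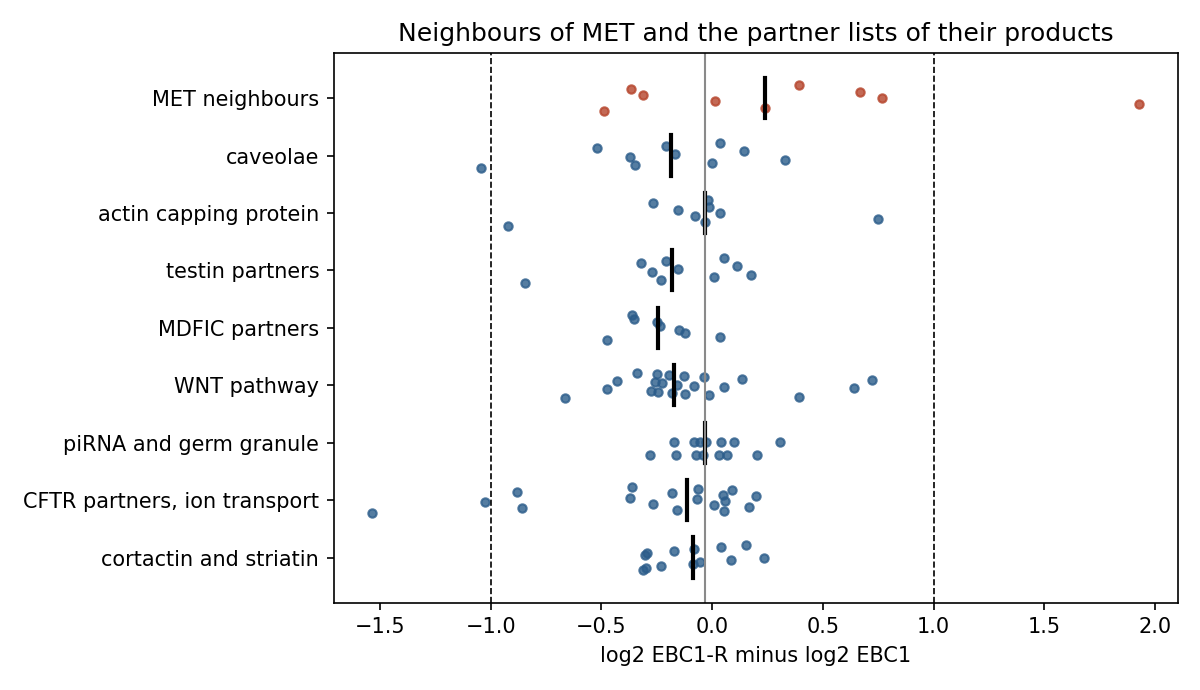
Difference, log2 EBC1-R minus log2 EBC1, of each measured gene (points) in the group of MET neighbours (red) and in the partner lists (blue), with each median as a black bar. The grey line is the median of all genes and the dashed lines mark 2-fold. The median of the MET neighbours, 0.24, lies to the right of the grey line and those of the partner lists between -0.24 and -0.03.

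The level filter kept genes whose higher value reached 7.41, the median of the higher values of all genes. Above it were 5 of the 9 measured neighbours: MDFIC, TES, CAV1, CAPZA2 and ST7. CFTR was below it at 7.28, so none of these 5 was 2-fold higher, where 2.13% of genes above the filter were, and none 2-fold lower, and their median difference was -0.31, the opposite sign to the median of all 9. A gene that is higher on 1 array can pass this filter through that array alone.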

How the data were processed

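RNA was measured on 1 EBC1-R and 1 EBC1 array. Per the labels' protocols, 100 ng total RNA was made into biotinylated cDNA with a whole-transcript kit. The labels also name an older Affymetrix array, but the probe identifiers match the annotation of another, whole-transcript array. For each probe set the authors deposited 1 value from either array, read here as a log2 intensity because of its range (4.22 to 14.2 in EBC1-R, 4.21 to 14.1 in EBC1). The log base, background correction, summarization and normalization are stated in no source used here. The medians, 6.71 in EBC1-R and 6.73 in EBC1, are close, and scaling of the arrays to a like median would remove any change shared by most genes.

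Of 28869 probe sets, 19310 named 1 gene, 1752 several and 7807 none. Values were averaged per gene (18377 genes, pandas 2.3.3). RefSeq (GRCh38.p14) gave gene order, promoter windows and the overlapping and pseudogene entries, and gene symbols were matched through its gene ids. Probe positions were not used, since the build of the array design is not given. Differences are log2 EBC1-R minus log2 EBC1, with no test, and were recomputed under other normalizations, filters, thresholds and probe set rules. The number of arrays limits the precision. The members and lists were chosen with earlier results of these data known. Named genes are all members, MET, genes between or next to them, and up to 3 genes per list or flank with the largest difference, others (CAPZA1, CAPZB, the cell type markers) being named for their role. The threshold step was tested on simulated data: of 200 genes changed 4-fold among 18377, 200 were recovered. Changes set at 4-fold and called at 2-fold check the code, and not detection on real single arrays.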

Additional observations from a re-analysis of the deposited data

How the results depend on the processing

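Quantile normalization, centring on the array median and removal of a lowess trend (statsmodels 0.14.6, span 0.2) left every measured neighbour with the sign reported. Centring adds the same 0.02 to every difference, so it could not reverse the sign of any measured neighbour. Each measured neighbour has 1 probe set, and a pseudocount of 16 cannot reverse the sign of such a gene. For the same reason the brightest probe set repeats the values reported. The addition of probe sets naming several genes brought in none for the measured neighbours, so their values stayed as they were. CFTR ranged from 1.59 to 1.98 and CTTNBP2 from 0.49 to 0.71, lowest with the pseudocount, CAV1 from -0.41 to -0.29 and ST7 from 0.76 to 0.79. MET ranged from 0.00 to 0.06. Of 190 comparisons of a result with an alternative, 183 moved by less than 0.16 log2 units or kept their count. These include the comparisons whose outcome was fixed as described. With probe sets naming several genes, which bring in CAV2 at -0.39, the median level in EBC1-R became 10.28, against 9.56, and the median difference of the neighbours 0.13. At 1.5-fold, 3 neighbours passed, and above the level filter 0 did, because CFTR is below it. The median difference there was -0.31 for the neighbours and 0.25 for the germ granule list, which keeps 2 genes. The centromeric flank had a median of 0.01 over 10 genes and -0.07 over 30. No paired analysis was possible because each group has 1 array, and no replicate could be left out for the same reason. Low intensities limit WNT2, ASZ1, CTTNBP2 and the EBC1 value of CFTR.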
